A study of Mus musculus with 6 samples.

Results

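The 10 genes described here, Pgap1, Pgap2, Pgap3, Piga, Pign, Pigk, Pigt, Pigs, Pigu and Gpaa1, encode enzymes and subunits that build, attach and trim the glycosylphosphatidylinositol (GPI) anchor. They were taken by symbol from the deposited table, in which all 10 have a row among 30777 genes and all 10 were expressed highly enough to be among the 20101 genes tested. Pgap1 was chosen because it had been 1 of the 3 genes called lower in the comparison below, so its difference is given as a description and supports nothing. The other 9 were chosen as its pathway.

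RNA was sequenced from colon tissue of BALB/c mice, an inbred laboratory strain. The 3 libraries labelled 5-Fu came from mice given 5-fluorouracil, a pyrimidine analogue that kills dividing cells and damages the intestinal lining. The 3 libraries labelled 5-Fu+BBR came from mice given 5-fluorouracil and berberine, a plant alkaloid. Both groups thus received 5-fluorouracil, the labels used here hold no untreated group, and they give no dose, time or age. Whether each sample came from its own animal is not stated either, so p-values measure the spread between these samples, which may be technical.

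A GPI anchor is a glycolipid that holds a protein on the outer face of the cell membrane without a membrane-spanning stretch. The anchor is built sugar by sugar in the endoplasmic reticulum, starting with the enzyme that contains Piga, and a transamidase then cuts the protein's tail and joins the protein to the finished anchor. An acyl chain on the inositol, added during assembly, is removed after attachment by Pgap1, which lets the protein leave the endoplasmic reticulum efficiently. Pgap3 and Pgap2 later exchange a fatty acid of the anchor in the Golgi. In the gut, GPI anchors carry antibacterial, complement-restraining and enzymatic proteins on the epithelial surface and many surface proteins of immune cells.

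Pgap1 (ENSMUSG00000073678) lies on the minus strand of chromosome 1, from 54472994 to 54557684 of GRCm38. In GENCODE M21, whose gene span is identical to that of the deposited table, it has 1 coding transcript with 27 exons and 10583 bases, of which 2766 are coding, and 3 transcripts with retained introns. The deposited row also lists 4 transcripts for it, and single transcripts were not analysed here. Piga (ENSMUSG00000031381) lies on the plus strand of chromosome X, from 164419787 to 164433916. These are the members with the largest differences below, so the 250 bases upstream of the RefSeq start of each are shown, 5′ to 3′ on the gene's strand. They cover chr1:54557685-54557934 and chrX:164419530-164419779 of GRCm38.p6. Capitals mark GC boxes (GGGCGG) in Pgap1 and CCAAT boxes in Piga, on either strand.
Pgap1: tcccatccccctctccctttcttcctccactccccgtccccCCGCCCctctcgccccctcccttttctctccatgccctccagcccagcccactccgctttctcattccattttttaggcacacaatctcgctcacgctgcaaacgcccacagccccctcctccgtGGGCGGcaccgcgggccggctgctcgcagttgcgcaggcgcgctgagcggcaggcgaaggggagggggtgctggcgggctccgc
Piga: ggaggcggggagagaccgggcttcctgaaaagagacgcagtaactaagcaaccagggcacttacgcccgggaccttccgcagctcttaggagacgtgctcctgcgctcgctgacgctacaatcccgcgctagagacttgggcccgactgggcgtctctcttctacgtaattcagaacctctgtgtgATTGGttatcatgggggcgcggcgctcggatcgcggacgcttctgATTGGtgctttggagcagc

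The window of Pgap1 held 20 CpG dinucleotides and that of Piga 22, against a median of 6 over 32851 RefSeq windows of the same length. At least as many CpGs as in Pgap1 were present in 17.9% of all windows, and at least as many as in Piga in 14.8%. Pgap1 had 2 matches to the GC box and none to CCAAT, and Piga had 2 matches to CCAAT and none to the GC box. A GC box was present in 32.7% and CCAAT in 33.8% of all windows. The E-box CACGTG, the cAMP response element TGACGTCA, the ETS element CCGGAAG, the NRF1 palindrome and TATAAA, searched on both strands, had 0 matches in either window, and 6.02%, 1.55%, 6.91%, 0.782% and 12.4% of all windows held them. None of these motifs contains another. RefSeq windows matched 8 of the 10 members by symbol, and Pigk and Gpaa1 had none. Of these 8, 5 held a GC box (Pgap1, Pgap2, Pgap3, Pign and Pigs). CCAAT was also held by 5 (Pgap2, Piga, Pign, Pigs and Pigt), so neither motif is particular to Pgap1 or Piga. A match is a string of letters, not a measured binding site.

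Library totals lay between 53824752 and 63831168 estimated counts, and the members had between 1016 and 13453 counts in every library. Expression is given in CPM, that is, counts brought to a common library size with TMM factors, for comparing libraries. It is also given in FPKM, which divides by a length per gene as well. For genes with several transcripts this length is not stated and need not be that of the coding transcript. FPKM thus compares genes only roughly. All 10 epithelial markers examined were present in every library, at a summed 12165.5 to 15247 CPM under 5-Fu and 12544.5 to 14415 CPM under 5-Fu+BBR. Summed smooth muscle markers were higher in 5-Fu+BBR (4333 to 4927 against 2356 to 3051 CPM, 8 of 8 with a positive log2 fold change), as were T and NK cell markers (51.8 to 79.4 against 22.2 to 32.2 CPM, 8 of 8), B and plasma cell markers (3110 to 6792 against 1431 to 2698 CPM, 8 of 8), goblet cell markers (13706.5 to 15945 against 7375 to 13022 CPM, 6 of 7), myeloid markers (687 to 886 against 548 to 657 CPM, 6 of 8) and adipocyte markers (86.8 to 161 against 17.4 to 32.8 CPM, 6 of 6). The defining adipocyte markers Adipoq, Plin1 and Lep were at 0 in 2 or 3 of the 5-Fu libraries. Markers of endothelium, of neurons and glia, of colonocytes and of the small intestine overlapped between groups. In each marker list, 0 genes were called by the edgeR test described below. Of the 20101 genes tested, 10186 had a positive log2 fold change. Kidney markers summed to 170 and 163 CPM in replicates 2 and 3 of 5-Fu+BBR and to 18.0 to 19.4 CPM in the other 4 libraries. In bulk tissue, fewer cells of a type and less RNA per cell cannot be told apart.

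The question was what berberine, given on top of 5-fluorouracil, changes in the colon. Among the 10 GPI anchor genes, Pgap1 was the lowest in 5-Fu+BBR relative to 5-Fu, Piga came next, and the other 8 differed by at most 1.17-fold. Of the 10 members, 1, Pgap1, was called lower and 0 higher by edgeR's quasi-likelihood test, with the adjusted p taken over all genes and a threshold of 0.05. This test called 0.0149% of the genes tested lower and 0.0597% higher. At an unadjusted p under 0.05, 2 members were lower and 0 higher, where 6.08% of all genes were lower and 9.48% higher. DESeq2 called 2 members lower and 0 higher, where it called 1.73% of all genes lower and 4.37% higher, and limma-voom 1 and 0, where it called 0.0149% and 0.0647%. The libraries of the groups did not overlap for 3 members, all lower (Pgap1, Piga and Pign), where 9.68% of all genes were lower without overlap and 12.3% higher. Because Pgap1 was picked from this contrast, nothing is read from these shares.

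Among the remodelling enzymes, Pgap1, the inositol deacylase, was at 49.6, 48.8 and 45.0 CPM under 5-Fu and at 26.0, 27.1 and 25.8 CPM under 5-Fu+BBR, in the order of replicates 1, 2 and 3 as throughout. The 3 libraries of 5-Fu+BBR lay close together and below every library of 5-Fu. The group means were 47.8 ± 2.48 and 26.3 ± 0.698 CPM (SD, n = 3), a log2 fold change of -0.86 ± 0.10 (SE), or a level 1.82-fold higher in 5-Fu; the adjusted p of 0.0363 is the value that chose this gene. On the FPKM scale the values were 2.53, 2.63 and 2.11 against 1.27, 1.41 and 1.32, again without overlap. Replicate 1 of 5-Fu+BBR, in which kidney markers were at the level of 5-Fu, had as low a Pgap1 level as replicates 2 and 3. Set against the summed epithelial markers, Pgap1 was at 36.4, 40.1 and 29.5 CPM per 10000 CPM of markers in 5-Fu. In 5-Fu+BBR it was at 18.0, 21.6 and 19.5. This ratio did not overlap either. That adds nothing, because the ratio holds the Pgap1 values that chose the gene and the marker sums overlapped. The part of kidney, smooth muscle, immune, goblet and fat cell markers in the difference was not tested. When a library was left out, the log2 fold change was -0.84 to -0.90, but the call was lost without 5-Fu replicate 1 (adjusted p = 0.167) and without 5-Fu+BBR replicate 1, 2 or 3 (adjusted p = 0.0530, 0.279 and 0.0928).

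Pgap2, which is needed to put a saturated fatty acid back on the anchor, was at 81.5, 89.1 and 69.3 CPM under 5-Fu and at 68.9, 63.1 and 73.4 CPM under 5-Fu+BBR. The groups overlapped, and the log2 fold change of -0.22 ± 0.12 did not pass (adjusted p = 0.419, 95% interval -0.50 to 0.05). Pgap3, which is needed to remove the unsaturated fatty acid before that step, was at 18.8, 18.1 and 20.02 CPM under 5-Fu and at 20.7, 18.6 and 21.2 CPM under 5-Fu+BBR. Its groups overlapped too (log2 fold change 0.09 ± 0.13, adjusted p = 0.793, 95% interval -0.20 to 0.37). The intervals of Pgap2 and Pgap3 both lie above that of Pgap1, which ran from -1.09 to -0.63. Since Pgap1 was chosen for its difference, this is a description only. In FPKM, Pgap1 stood at 16.6%, 14.9% and 17.7% of the Pgap2 level in 5-Fu and at 10.3%, 11.7% and 9.57% in 5-Fu+BBR. The size of this ratio depends on the gene lengths used for FPKM, which are not stated.

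**Figure D1:**
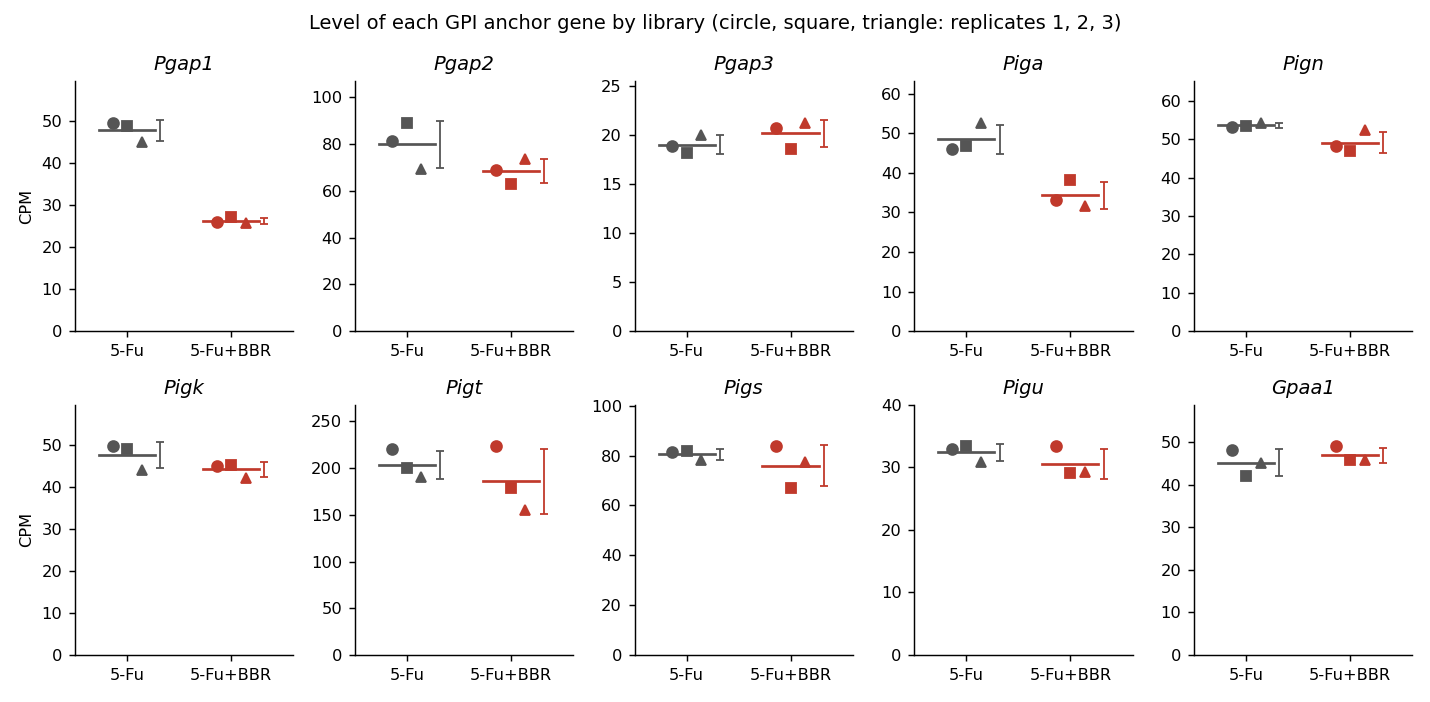
CPM of the 10 GPI anchor genes in the 6 libraries, 1 panel per gene, each y axis starting at 0. Points are libraries (circle, square and triangle for replicates 1, 2 and 3), lines are group means and bars are ± 1 SD; Pgap1 sits at 45.0 to 49.6 CPM under 5-Fu and at 25.8 to 27.1 CPM under 5-Fu+BBR, and Piga is the other gene with a clear gap.

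Of the assembly genes, Piga encodes the catalytic subunit of the enzyme that takes the first step, the transfer of N-acetylglucosamine to phosphatidylinositol. It was at 46.1, 46.7 and 52.6 CPM under 5-Fu and at 33.2, 38.2 and 31.7 CPM under 5-Fu+BBR. Every 5-Fu+BBR library was below every 5-Fu library, on the CPM and on the FPKM scale. The means were 48.5 ± 3.62 and 34.3 ± 3.40 CPM, 1.41-fold higher in 5-Fu (log2 fold change -0.50 ± 0.12, 95% interval -0.76 to -0.23), which did not pass over all genes (adjusted p = 0.137). DESeq2 called it lower (adjusted p = 0.0149), and in the other alternatives run its adjusted p was 0.124 to 0.779. Pign, which adds ethanolamine phosphate to the first mannose, was at 53.1, 53.4 and 54.3 CPM under 5-Fu and at 48.2, 47.0 and 52.3 CPM under 5-Fu+BBR. Its groups were apart in CPM but overlapped in FPKM, and its log2 fold change of -0.13 ± 0.09 did not pass (adjusted p = 0.561, 95% interval -0.34 to 0.09).

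The transamidase has 5 subunits, all among the members. Pigk, the catalytic protease-like subunit, was at 49.7, 49.1 and 44.2 CPM under 5-Fu and at 45.0, 45.4 and 42.2 CPM under 5-Fu+BBR (log2 fold change -0.11 ± 0.10, adjusted p = 0.650). Pigt, which is held to Pigk by a disulfide bond, was at 219.9, 200.3 and 191 CPM under 5-Fu and at 223, 179 and 155 CPM under 5-Fu+BBR (log2 fold change -0.13 ± 0.15, adjusted p = 0.719). Its highest and its 2 lowest libraries were all in 5-Fu+BBR. Pigs was at 81.3, 82.0 and 78.1 against 83.6, 67.1 and 77.2 CPM, Pigu at 33.0, 33.3 and 30.9 against 33.3, 29.1 and 29.3 CPM, and Gpaa1, which is thought to form the bond between protein and anchor, at 48.3, 42.0 and 45.2 against 49.0, 45.9 and 45.8 CPM. Their log2 fold changes were -0.08 ± 0.11, -0.08 ± 0.11 and 0.05 ± 0.10, with adjusted p values of 0.759, 0.765 and 0.837. The groups overlapped for all 5 subunits. The 95% intervals of the 5 together ran from -0.48 to 0.29. The Pgap1 value of -0.86 lies outside them, but Pgap1 was chosen for its difference, so nothing is read from this gap.

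**Figure D2:**
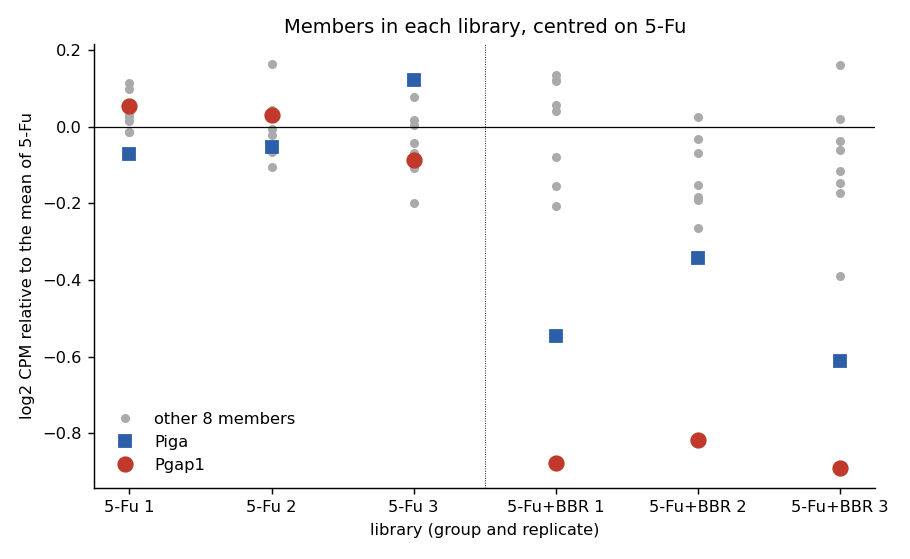
Level of each member in each library as log2 CPM minus the gene's mean log2 CPM in 5-Fu, by library. Pgap1 (red circles) lies at -0.82 to -0.89 in the 5-Fu+BBR libraries, Piga (blue squares) at -0.34 to -0.61, and the other 8 members (grey) stay above both in each of these 3 libraries.

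Within each library, the Pgap1 level relative to its 5-Fu mean was compared with the median of the other 9 members on the same log2 scale. This difference was 0.03, 0.04 and -0.04 in 5-Fu and -0.92, -0.64 and -0.78 in 5-Fu+BBR. The 5-Fu values are small by construction, because each gene was centred on its 5-Fu mean. Those of 5-Fu+BBR hold the Pgap1 difference that chose the gene, so nothing is read from them. The median fitted log2 fold change of the other 9 was -0.11, while the median over all 20101 genes was 0.01. Pgap1 minus the median of the other 9 was -0.75, a description only for the same reason. Of the other 9, 7 had a negative log2 fold change (77.8%, against 49.3% of all genes tested). Pgap1 had the lowest mean FPKM of the 10 members and Pigt the highest.

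**Figure D3:**
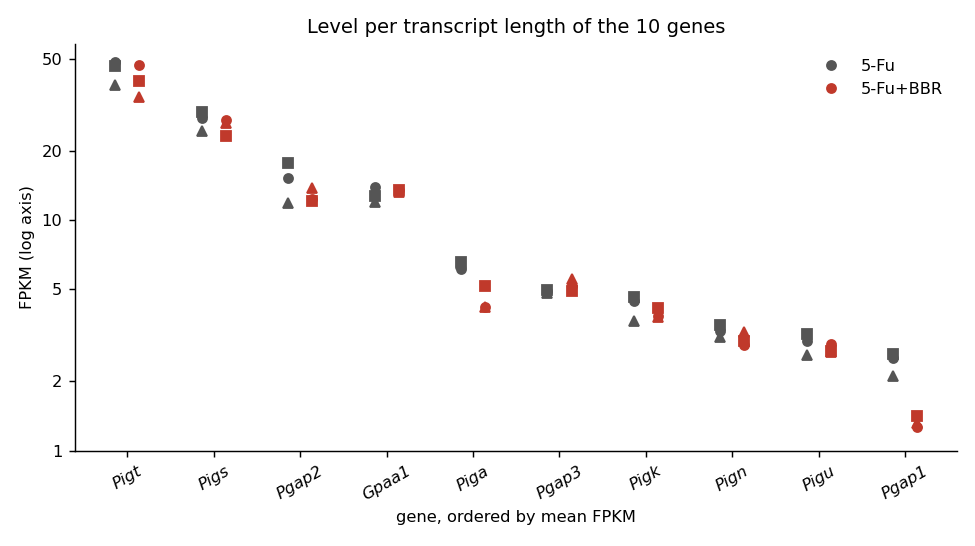
FPKM of the 10 members on a log axis, ordered by their mean over 6 libraries, with 5-Fu in grey and 5-Fu+BBR in red and 1 point per library. Levels run from Pigt, with a mean of 42.5 FPKM, to Pgap1, with 1.88 FPKM, and the libraries of the groups are apart for Piga and Pgap1.

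In order of mean FPKM the members were Pigt (42.5), Pigs (26.3), Pgap2 (13.8), Gpaa1 (13.1), Piga (5.45), Pgap3 (5.06), Pigk (4.08), Pign (3.18), Pigu (2.84) and Pgap1 (1.88). Over the 6 libraries, the neighbours Pgap2 and Gpaa1, Piga and Pgap3, Pign and Pigu, and Pigu and Pgap1 overlapped in FPKM, and the other neighbours in this order did not. The transamidase subunits were thus far apart in FPKM, from Pigt to Pigu, although they form 1 complex. Pigu had a mean of 31.5 CPM and 2.84 FPKM, and Pigs 78.2 CPM and 26.3 FPKM. Yet the longest coding transcript of Pigu is shorter than that of Pigs (1636 against 2501 bases). The length behind FPKM is thus not that of the coding transcript, so this order is not read as an order of transcript abundance. In the annotation printed with the deposited table, all 10 members carry the term for GPI anchor biosynthesis and for the endoplasmic reticulum membrane, and 5 carry that for the transamidase complex.

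The rest of the pathway was described with a list of 32 further genes, all tested: 17 of assembly, 4 of the mannose donor dolichol phosphate mannose, 7 of remodelling and export, and 4 of release or cleavage. By edgeR 0 were called in either direction, with 1 higher and 0 lower at an unadjusted p under 0.05, where 9.48% of all genes were higher and 6.08% lower; DESeq2 called 1 higher (4.37% of all genes) and limma-voom 0. Positive log2 fold changes were found for 17 and negative ones for 15, with a median of 0.01, as over all genes. For 26 genes the groups overlapped; 3 genes were higher and 3 lower in every 5-Fu+BBR library, near the shares over all genes (12.3% and 9.68%).

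The lowest p was that of Dpm1, the catalytic subunit of dolichol phosphate mannose synthase. Dpm1 was at 10.5, 14.3 and 10.3 CPM under 5-Fu and at 21.1, 32.8 and 13.8 CPM under 5-Fu+BBR, with replicate 3 inside the range of 5-Fu (log2 fold change 0.95 ± 0.31, adjusted p = 0.225). These values are uncertain, because the predicted gene Gm20716 overlaps Dpm1 on the same strand and reads can be split between them. Gm20716 was at 126, 38.2 and 51.3 against 43.3, 0 and 48.0 CPM, and was at 0 in the library in which Dpm1 was highest. The sum of Dpm1 and Gm20716 was 137, 52.4 and 61.5 against 64.5, 32.8 and 61.8 CPM. It overlapped between groups, as Dpm1 alone did, and was not higher in 5-Fu+BBR. Gm20716 spans 168180986 to 168230364 and Dpm1 168209048 to 168230379. The sum can thus hold reads from outside Dpm1 and is not a corrected level of Dpm1. The mannosyltransferase Pigv was at 15.9, 15.9 and 19.2 against 19.8, 22.0 and 21.6 CPM and the deacetylase Pigl at 4.76, 4.38 and 3.35 against 6.26, 5.25 and 6.13 CPM. Both were apart between groups and did not pass (log2 fold changes 0.31 ± 0.14 and 0.50 ± 0.23, adjusted p = 0.326 and 0.346). Pigz, which adds a side mannose, was low throughout, at 0.473 to 0.729 CPM under 5-Fu and 0.862 to 1.07 CPM under 5-Fu+BBR (adjusted p = 0.459).

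Tmed2, a p24 protein of the cargo receptor that carries remodelled GPI-anchored proteins out of the endoplasmic reticulum, was at 325, 327 and 292 against 280.0, 273 and 252 CPM (log2 fold change -0.23 ± 0.11, adjusted p = 0.370). Gpld1, a phospholipase that can cleave GPI anchors, was at 13.6, 11.3 and 12.6 against 9.50, 10.003 and 10.5 CPM (log2 fold change -0.32 ± 0.16, adjusted p = 0.370). In CPM, both genes had every 5-Fu+BBR library below every 5-Fu library. In FPKM this held for Gpld1, while the groups overlapped for Tmed2. Mppe1, also called PGAP5, which acts after Pgap1 on the same anchor, was at 30.7, 29.7 and 35.4 against 31.7, 35.6 and 36.3 CPM, with overlap (log2 fold change 0.11 ± 0.12, adjusted p = 0.696; named after its values were seen).

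**Figure D4:**
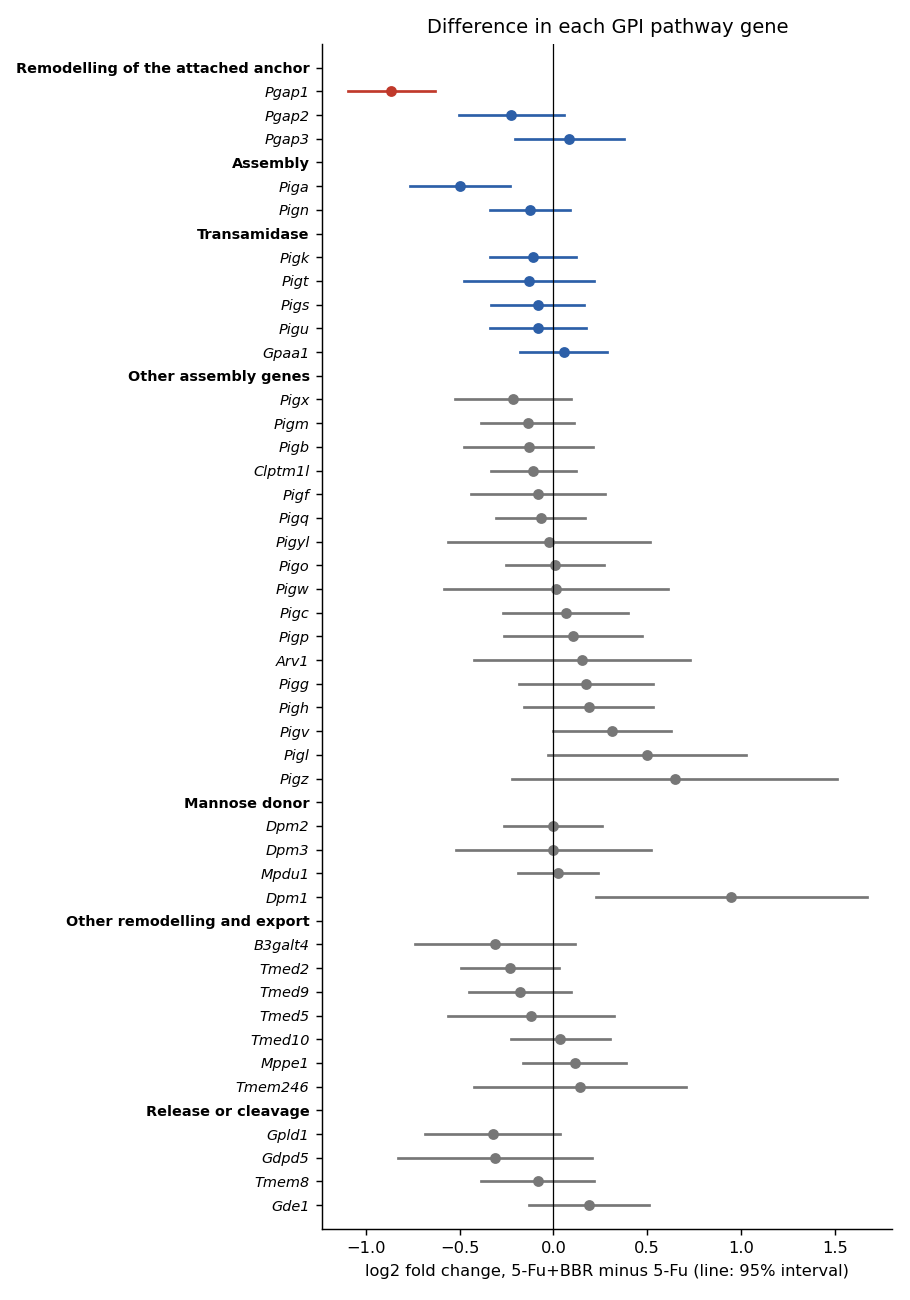
Log2 fold change, 5-Fu+BBR minus 5-Fu, of the 10 members (red and blue) and 32 further pathway genes (grey), with 95% intervals from edgeR's fit, grouped by role. Pgap1 at -0.86 and Piga at -0.50 lie to the left with intervals that leave out 0, and Dpm1 at 0.95, whose reads may be split with the overlapping Gm20716 at -1.24, lies to the right.

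The proteins that carry GPI anchors were described with a list of 76 genes, of which 74 have a row in the table and 72 were tested. By edgeR 0 of the 72 were called in either direction, while 18 were higher and 3 lower at an unadjusted p under 0.05, where 9.48% of all genes were higher and 6.08% lower. DESeq2 called 11 higher and 0 lower, where it called 4.37% and 1.73% of all genes, and limma-voom 0. Positive log2 fold changes were found for 50 and negative ones for 22, with a median of 0.29 against 0.01 over all genes. For 50 genes the groups overlapped, while 20 were higher and 2 lower in every 5-Fu+BBR library, where 12.3% and 9.68% of all genes were. Gpc2 is among the lower ones in both counts, and its values are uncertain. The predicted gene Gm43720 overlaps it on the same strand, with a mean count 34% of that of Gpc2. The summed markers of smooth muscle, goblet, T and NK, B and plasma, myeloid and fat cells, given above, were higher in the same libraries, Car4, Cd14 and Alpi are in a marker list as well as in this one, and their part in these differences was not tested.

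The 8 genes of smallest p in this list were all higher in every 5-Fu+BBR library. The gene Cpm, which encodes the membrane enzyme carboxypeptidase M, was at 22.6, 25.7 and 26.1 CPM under 5-Fu and at 47.6, 45.6 and 70.5 CPM under 5-Fu+BBR (log2 fold change 1.14 ± 0.18, adjusted p = 0.0752). Gp2, a receptor for bacteria on the M cells that cover lymphoid follicles, was at 0.757, 2.14 and 1.54 against 6.15, 9.03 and 8.37 CPM (log2 fold change 2.40 ± 0.39, adjusted p = 0.0828). Mmp17, a GPI-anchored metalloproteinase, was at 5.22, 5.27 and 4.37 against 10.4, 10.4 and 9.05 CPM (log2 fold change 1.004 ± 0.19, adjusted p = 0.0980). None of the 3 passed.

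The lymphocyte surface proteins Cd52 and Cd48 were at 10.8, 26.1 and 17.8 against 43.1, 53.1 and 49.2 CPM and at 3.01, 4.70 and 5.83 against 7.96, 10.9 and 11.3 CPM. Their log2 fold changes were 1.41 ± 0.30 and 1.154 ± 0.28 (adjusted p = 0.123 and 0.146). Negr1, a neuronal adhesion protein, and Gfra2, the receptor for neurturin, were at 1.295 to 1.51 against 2.47 to 3.13 CPM and at 2.13 to 4.85 against 5.86 to 7.85 CPM (adjusted p = 0.160 and 0.215). Summed neuron and glia markers overlapped between groups, at 22.8 to 32.2 CPM under 5-Fu and 22.6 to 33.0 CPM under 5-Fu+BBR. Smooth muscle and fat cell markers, given above, were higher in 5-Fu+BBR. The part of any of these cells in the differences of Negr1 and Gfra2 was not tested. Ly6g6c was at 0.108, 0 and 0.256 CPM under 5-Fu and at 1.61, 0.597 and 1.154 CPM under 5-Fu+BBR, a level too low for a fold to be given.

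The most abundant GPI-anchored protein gene was Lypd8, whose product keeps flagellated bacteria away from the colonic epithelium. It was at 11316, 9659 and 12749 CPM under 5-Fu and at 14753, 10465 and 9701 CPM under 5-Fu+BBR, with overlap (log2 fold change 0.05 ± 0.22, adjusted p = 0.937, 95% interval -0.45 to 0.55). Ly6a, a surface marker of stem and activated cells, was at 925, 820.2 and 1117 against 1234, 1403 and 738 CPM (adjusted p = 0.689). Ly6e, an interferon-inducible surface protein, was at 485, 976 and 514 against 2251, 1912 and 827 CPM, with replicate 3 of 5-Fu+BBR inside the range of 5-Fu (log2 fold change 1.34 ± 0.43, adjusted p = 0.234). Car4, a carbonic anhydrase of the colonocyte surface, ranged from 102 to 764 CPM within 5-Fu alone and was at 282 to 391 CPM under 5-Fu+BBR (adjusted p = 0.807). Single values of Ly6 genes are uncertain, because this family holds similar copies among which reads can be split.

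**Figure D5:**
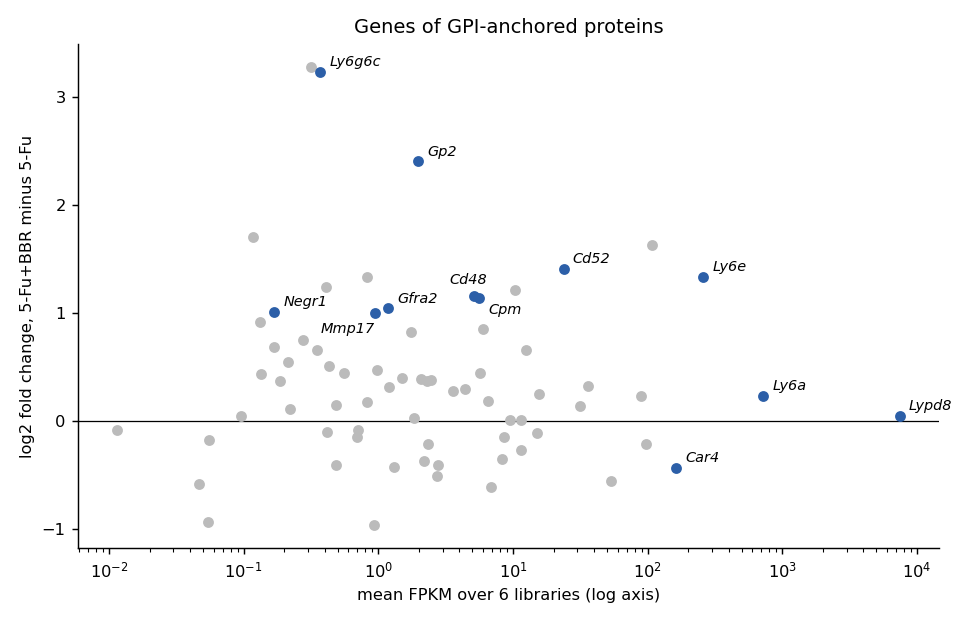
Log2 fold change, 5-Fu+BBR minus 5-Fu, against mean FPKM on a log axis for the 72 tested genes of GPI-anchored proteins, 1 point per gene. Named points (blue) are the 8 of smallest p and the 4 of highest mean FPKM; 50 points lie above 0, and Lypd8, the most abundant, lies at 0.05.

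Among 11623 genes with a mean FPKM of at least 1, the 5 whose log2 CPM followed Pgap1 most closely over the 6 libraries were Otud6b, Smad4, E2f2, Zfp428 and Nipal1. Likeness was the root-mean-square difference of log2 CPM after each gene was centred on its own mean, and it was 0.09, 0.11, 0.12, 0.12 and 0.13 for these genes. Piga, at 0.22, ranked 98, the closest of the members, and Pgap3, at 0.49, ranked 7019, the farthest. Otud6b, a deubiquitinase, was at 50.2, 48.8 and 44.9 against 29.6, 30.9 and 29.6 CPM, and Smad4, the shared mediator of TGF-beta and BMP signals, at 257, 216 and 218 against 145, 135 and 137 CPM. Since most of the spread of Pgap1 is its difference between groups, a gene is like it mainly by having a difference of that size.

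The nearest tested genes on each side of Pgap1 on chromosome 1 were Gtf3c3, Ccdc150, Ankrd44 and Sf3b1. Gtf3c3, a subunit of a transcription factor of RNA polymerase III, 34023 bases away, was at 21.3, 22.0 and 21.9 CPM under 5-Fu and at 20.3, 25.0 and 22.0 CPM under 5-Fu+BBR (log2 fold change 0.05 ± 0.13, adjusted p = 0.897, 95% interval -0.25 to 0.34). Ankrd44, 87656 bases away on the other side, was at 26.4, 27.1 and 27.9 against 27.7, 30.0 and 32.04 CPM (log2 fold change 0.14 ± 0.11, adjusted p = 0.592, 95% interval -0.12 to 0.40). Beyond them, the splicing factor gene Sf3b1 was higher in every 5-Fu+BBR library without passing (log2 fold change 0.21 ± 0.11, adjusted p = 0.395). The intervals of Gtf3c3, Ankrd44 and Sf3b1 lie above that of Pgap1, which was chosen for its difference, so nothing is read from this. Ccdc150 was below 1 CPM throughout, at 0.793, 0.878 and 0.0394 against 0.423, 0 and 0 CPM. Its interval, -5.72 to 1.74, covers that of Pgap1. The predicted gene Gm36955, which lies inside Pgap1 on the same strand, had 8 counts in 1 library and 0 in the others.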

How the data were processed

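The submitters' processing notes list, without role or order, HISAT2 2.0.4, StringTie 1.3.4d, cutadapt 1.9, UMI-tools, edgeR and DESeq2, and build GRCm38. The annotation version and the use of the molecular identifiers are not given in the sources used here. The deposited table holds estimated counts, as whole numbers, and FPKM, both computed by the authors. Genes with 1 transcript and over 50 counts were compared with FPKM times transcript length (GENCODE M21) times a constant of the library. For 92.1% to 93.2% of them the count was within 2% of this product. Genes with several transcripts were not compared. The same holds where FPKM is computed from tallied reads, so the comparison cannot tell estimates from reads tallied one by one. The values are treated as estimated counts, computed by the authors before deposit with tools whose roles are not stated, and were used as deposited. After filterByExpr and TMM scaling, the quasi-likelihood test of edgeR 4.0.16 (robust, two-sided, no covariates, R 4.3.3) was run on 20101 genes, and p-values were adjusted over them by Benjamini-Hochberg. Figures used matplotlib 3.10.9. The steps were tested on simulated data.

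No 2 libraries held identical values.

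The members and lists were chosen with earlier results of these data known. Named were all members; of the further pathway genes and of GPI-anchored protein genes those that passed and the 6 and 8 of smallest p; the 4 most abundant of the latter; the 5 genes most like Pgap1, leaving out predicted genes and receptor segments; and the nearest 2 tested genes on each side. Alternatives were a replicate block, no filter, at least 50 counts in 3 libraries, DESeq2 size factors, DESeq2 1.42.0, limma-voom and limma-trend (limma 3.58.1) on log2(FPKM + 1) or log2(FPKM + 0.1) with an FPKM of at least 1 in 3 libraries, counts divided by 4, an adjusted p under 0.1, leaving out each library, and 5-Fu+BBR replicate 1 alone.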

Additional observations from a re-analysis of the deposited data

How the results depend on the processing

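The direction of Pgap1, Pgap2, Pgap3, Piga, Pigk, Pign and Gpaa1 was kept in every alternative run. Pigt, Pigs and Pigu turned positive (0.12, 0.044 and 0.030) with 5-Fu+BBR replicate 1 alone against 5-Fu. The count of members called lower, 1, was 2 by DESeq2 (Pgap1 and Piga) and 0 by limma-trend on log2(FPKM + 1) or log2(FPKM + 0.1) and with 5-Fu+BBR replicate 1 alone, and 0 to 1 when a library was left out; the cause was not tested. By DESeq2, 1 further pathway gene was called higher (Dpm1, which shares its place with Gm20716). GPI-anchored protein genes called higher were 0, and 3 with the replicate block (Cd52, Cpm and Gp2), 2 without a filter (Cpm and Gp2) and 11 by DESeq2. They were 3 at an adjusted p under 0.1, a threshold at which all genes were not counted, so no share stands beside this number. When a library was left out they were 0 to 2, with 2 (Cd52 and Gp2) without 5-Fu replicate 2. That run called 145 of all 20763 genes tested higher. Replicate numbers were not taken as pairs, since deviations of same-numbered libraries correlated at 0.058, 0.024 and 0.123 and not every library correlated best with its own number. The block changed no call of a member or further pathway gene. Pgap1 minus the median of the other 9, -0.75, was -0.47 on log2(FPKM + 1), which understates low genes, and -0.92 with 5-Fu+BBR replicate 1 alone. The median of the further pathway genes, 0.01, was -0.036 with that library alone and -0.024 to 0.020 when a library was left out; that of GPI-anchored protein genes (0.29) was 0.23 to 0.38 when a library was left out. Over all genes, 12 were called higher and 3 lower, against 91 and 22 with the block, 64 and 13 without a filter, 879 and 347 by DESeq2, 10 and 1 on log2(FPKM + 1), 7 and 0 on log2(FPKM + 0.1), 0 and 0 with 5-Fu+BBR replicate 1 alone, and 0 to 145 and 0 to 15 when a library was left out. The number of libraries, 3 a group, limits the precision.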

Other observations

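The term for GPI anchor biosynthesis in the deposited annotation covers 33 genes, all tested, among them the 10 members. Of these, 1 was called lower (Pgap1) and 0 higher by edgeR, where 0.0149% and 0.0597% of all genes were. At an unadjusted p under 0.05, 3 were lower and 1 higher, where 6.08% and 9.48% of all genes were. The third of the lower ones, besides Pgap1 and Piga, was Cwh43, which is in neither list above and was named after its values were seen. Cwh43, whose yeast counterpart takes part in lipid remodelling of GPI anchors, was at 112, 122 and 108 CPM in 5-Fu and at 92.8, 37.9 and 30.2 CPM in 5-Fu+BBR. All 3 libraries of 5-Fu+BBR were below those of 5-Fu, but the difference lay mostly in replicates 2 and 3, the libraries in which kidney markers summed to 170 and 163 CPM. It did not pass (log2 fold change -1.09 ± 0.43, adjusted p = 0.303). The part of those libraries in the difference was not tested.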
